A study of Mus musculus with 72 samples.

Results

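Aminoacyl-tRNA synthetases load each tRNA with its amino acid, and the transcripts of 35 of their genes were followed in mouse liver. The members were taken by gene symbol from a list of 19 enzymes of the cytosol and 16 of the mitochondrion, and all 35 were found among the 50307 genes of the count table. All 35 also held enough counts to be tested, among 14954 genes in all. The lowest count of any member in any library was 28, for Pars2.

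The RNA came from livers of DBA/2J mice (DBA) and C57BL/6J mice (B6), taken after 12 weeks on a Western diet, which is rich in fat and sugar, and a 16 h fast. The diet was given with low isoleucine (WD Low Ile), with high isoleucine (WD High Ile) or as a control (WD Control), to females and males of both strains. This makes 12 groups of 6 libraries, 72 in all, with 24 libraries per diet. The labels give 18 weeks as the age, and their texts differ on the age at the start of the diet, 6 weeks in the design and 18 weeks in the treatment description. They spell the strain of the B6 samples C56BL/6J, and give no isoleucine content as a number. Every group ate a Western diet, so no group shows liver on another diet. Nothing in the labels states that the 6 libraries of a group are 6 animals, so the p-values speak of the spread among libraries, which may in part be technical. Titles give each group 3 numbers, each borne by a library lettered N and a library lettered R, and neither is explained. In 43 of 72 libraries the most similar library of the group was that of the same number. If such libraries share a source, p-values that count 6 libraries as independent are too small, so a fit with the number as a replicate block is given beside the calls it ends.

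A cytosolic enzyme charges the tRNAs that serve the ribosomes of the cytosol, and a separate enzyme, also encoded in the nucleus, usually charges the mitochondrial tRNA for the same amino acid. Glycine and lysine are exceptions, since Gars and Kars each serve both compartments. When an amino acid is scarce, uncharged tRNA activates the kinase GCN2, the translation factor eIF2 is phosphorylated, and the transcription factor ATF4 accumulates. ATF4 is known to act on asparagine synthetase and on many cytosolic synthetases through a DNA element it binds together with C/EBP proteins, the C/EBP-ATF response element.

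The letters TGATGNAA, the core of that element, were looked for on both strands of the RefSeq promoter windows, which run from 250 bases before to 50 bases after a gene's start. They are shown because ATF4 is known to act on cytosolic synthetases. Whether the letters bear on the results below was not tested. Of 26 members with a window, 5 held the letters, which is 19.2%, against 1304 of 32851 windows of all genes, which is 3.97%. All 5 were among the 12 cytosolic members with a window, and 0 of the 14 mitochondrial members with a window held them. The stricter form TGATGCAA, which is contained in the first, occurred in 4 of the 26 members and in 0.895% of all windows. Members with no window were Cars, Hars, Lars, Nars, Rars, Vars, Wars, Hars2 and Pars2. Matches in 4 of the 5 members are printed. Each sequence below gives 30 bases of the gene's own strand, 5′ to 3′, with the 8 matching letters in capitals. They come from RefSeq on GRCm38.p6 and lie at chr6:55037960-55037989 (Gars, plus strand), chr13:49682126-49682155 (Iars, plus strand), chr15:11399655-11399684 (Tars, minus strand) and chr4:129189895-129189924 (Yars, plus strand).
Gars: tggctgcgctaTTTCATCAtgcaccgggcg
Iars: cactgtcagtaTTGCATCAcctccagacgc
Tars: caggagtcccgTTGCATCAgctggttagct
Yars: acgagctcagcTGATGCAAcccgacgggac
In Yars the motif reads along the gene, and in the other 3 it reads on the opposite strand. There were 22 bases between motif and start in Gars and 7 in Tars, both upstream, whereas in Iars and Yars it lay behind the start, after 7 and 3 transcribed bases. A match is a description of these letters and shows no binding.

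Library totals, in units of 1000000 counts, ranged over 13.0 to 51.1 with a median of 24.1. Summed levels of 11 hepatocyte markers lay between 69600 and 145000 counts per 1000000 of the scaled library size (CPM) in the 72 libraries. The summed markers of macrophages lay between 121 and 1260 CPM and those of lymphocytes between 4.27 and 23.1 CPM, so each library read as liver. The libraries that stood farthest from their own group, by the SD of their log2 deviations over all genes, were DBA male high library 3 (0.58), B6 male high library 1 (0.556), B6 female control library 4 (0.531) and B6 male control library 1 (0.522). Where leaving out any of these ended a call or moved a count by over 1.5 times, the value without it is given. In bulk liver, fewer cells of a type and less RNA per cell cannot be told apart.

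Levels of the members spread widely when set per kb of the principal transcript. The highest median over the 72 libraries was that of the cytosolic alanine enzyme Aars at 34.5 CPM per kb, followed by the asparagine enzyme Nars at 27.2, the mitochondrial leucine enzyme Lars2 at 27.1 and the lysine enzyme Kars at 23.8 CPM per kb. The lowest was that of Mars2, which charges mitochondrial methionine tRNA, at 0.272 CPM per kb. Lars2 was the only mitochondrial gene among the 12 highest, and the 7 lowest were all mitochondrial. Next to each other in this order, genes overlapped in their ranges over libraries, except Wars2 (0.531 to 1.80 CPM per kb) and Mars2 (0.171 to 0.414 CPM per kb). That gap rests on the annotated length of Mars2, 11294 bases, the longest of the members. Before division by length, Mars2 (1.93 to 4.68 CPM) and Wars2 (2.34 to 7.95 CPM) overlapped. Among the enzymes for branched-chain amino acids, the mitochondrial Iars2 (11.6 CPM per kb) stood above the cytosolic isoleucine enzyme Iars (7.58 CPM per kb). Lars had 6.67 CPM per kb, Vars 4.52 and Vars2 3.93. Kars varied least between libraries of a group, with a median coefficient of variation of 6.99%, and Lars2 most, with 46.9%.

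**Figure D1:**
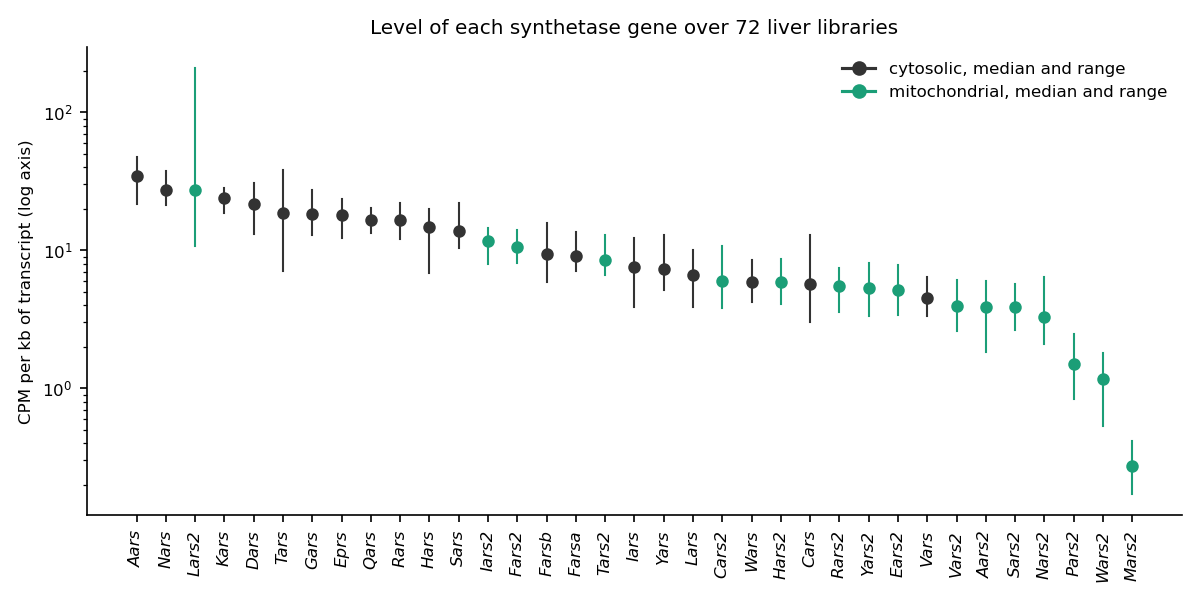
Level of each of the 35 members as CPM per kb of transcript (log axis), with the median (point) and the range (line) over 72 libraries. Aars leads at 34.5 CPM per kb, the range of Lars2 reaches 208 CPM per kb, and Mars2 is lowest at 0.272 CPM per kb.

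On low isoleucine against control, taken as the mean of the 4 strain-sex classes, 12 members passed the test, most of the cytosolic ones higher and each of the mitochondrial ones lower. Of 19 cytosolic members, 6 rose (Tars, Farsa, Gars, Lars, Iars and Hars) and 1 fell (Aars). Of 16 mitochondrial members, 5 fell (Vars2, Aars2, Nars2, Fars2 and Tars2), and 0 rose by edgeR's quasi-likelihood test or by DESeq2, while Mars2 and Wars2 were higher at an unadjusted p under 0.05. Without B6 female control library 4, or without DBA male high library 3, edgeR called 1 mitochondrial member higher, Mars2. Among all 14954 genes 17.8% rose and 20% fell at a Benjamini-Hochberg adjusted p under 0.05, with a median log2 fold change of -0.00. The shares were 31.6% higher and 5.26% lower for the cytosolic members, and 0.0% higher and 31.2% lower for the mitochondrial ones. Over both compartments together, 6 of 35 rose and 6 fell, or 17.1% each way, which is near the share of all genes. The median log2 fold change was 0.05 for cytosolic members, of which 12 lay above 0, and -0.05 for mitochondrial members, of which 6 did. At an unadjusted p under 0.05 the low diet separated 17 of the 35 members. This is near the share of all genes, of which 46.1% passed in that way. DESeq2 called the same 12 as edgeR. With the replicate block 8 of the 12 kept their calls, and Iars (adjusted p = 0.08), Hars (0.056), Aars (0.084) and Aars2 (0.084) missed the threshold. Whether the compartments differed was not tested.

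**Figure D2:**
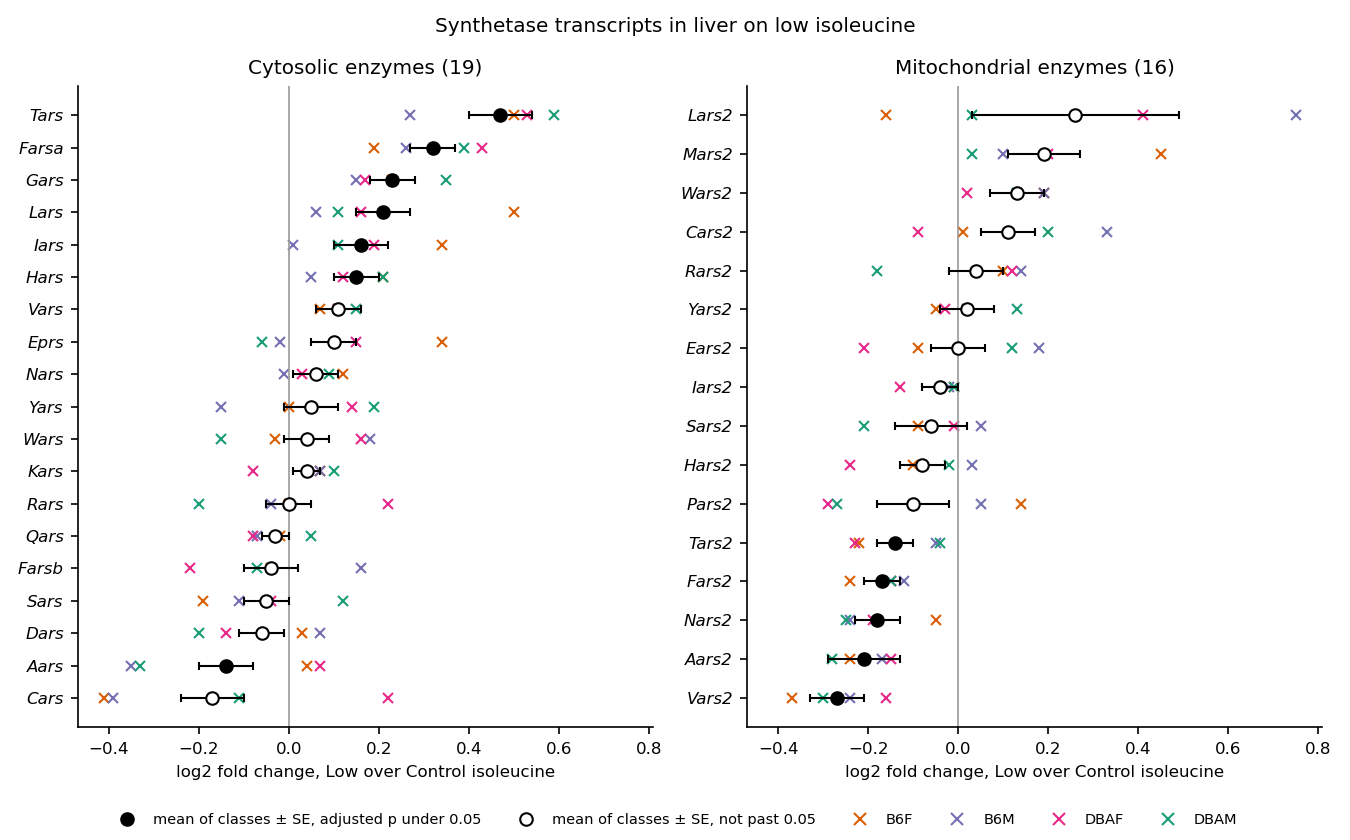
Log2 fold change of each member, low over control isoleucine, with the mean of the 4 classes and its SE (circles, filled where the adjusted p is under 0.05) and the value in each class (crosses). Filled circles lie to the right for 6 cytosolic members, to the left for Aars and for 5 mitochondrial members.

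The threonine enzyme Tars carried the largest rise. In DBA females Tars lay between 89.9 and 152 CPM (median 107) on low isoleucine, against 68.2 to 93.2 CPM (median 76.2) on control. In DBA males it lay between 50.2 and 95.1 CPM (median 77.3) on low isoleucine, against 28.6 to 56.9 CPM (median 52.9) on control. In B6 females it lay between 84.2 and 111 CPM (median 102), against 63.6 to 77.4 CPM (median 72.7), and these were the only groups of Tars that did not overlap. In B6 males the low libraries held 82.1 to 93.8 CPM (median 88.4), and the highest control library reached the lowest of them at 82.1 CPM (control median 73.5). All 24 low libraries stood above the control mean of their class. The mean log2 fold change of Tars was 0.47 ± 0.07 (SE; adjusted p = 1.8e-07 by edgeR's quasi-likelihood test).

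Farsa encodes the catalytic subunit of the cytosolic phenylalanine enzyme, whose other subunit is encoded by Farsb. Over 24 low libraries Farsa lay between 15.9 and 24.6 CPM (median 19.5), against 13.4 to 18.5 CPM (median 15.6) over 24 control libraries. Every low library stood above the control mean of its class, and in DBA females the groups did not overlap (19.2 to 21.3 CPM on low isoleucine, against 13.4 to 16.7 CPM on control). The log2 fold change was 0.32 ± 0.05 (SE, adjusted p = 1.3e-07 by edgeR). Its partner Farsb had a log2 fold change of -0.04 and an adjusted p of 0.59, with 12.0 to 32 CPM on low isoleucine, against 16.4 to 28.4 CPM on control. The subunits of this enzyme thus did not both pass the test.

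Gars, the glycine enzyme of both compartments, had a log2 fold change of 0.23 ± 0.05 (adjusted p = 1.1e-04 by edgeR), with 22 of 24 low libraries above the control mean. It lay between 40.9 and 65.5 CPM (median 47.1) on low isoleucine, against 32.8 to 53.4 CPM (median 41.9) on control. In DBA males the groups did not overlap, with 53.7 to 65.5 CPM on low isoleucine and 40.4 to 51.4 CPM on control. Hars, the cytosolic histidine enzyme, rose by 0.15 ± 0.05 (adjusted p = 0.025, 20 of 24 libraries). Aars fell as the mean of the classes. Its log2 fold change was -0.14 ± 0.06, at an adjusted p of 0.039 and with 17 of 24 low libraries lower. Group means on low isoleucine and control were 175 and 223 CPM in B6 males and 176 and 221 CPM in DBA males. In females they were 218 and 212 CPM (B6) and 192 and 183 CPM (DBA), while medians were 219 and 230 CPM and 172 and 186 CPM. The call was lost with the replicate block (adjusted p = 0.084) and with no filter on low counts (0.092). Aars and Hars are thus opposite in sign, although both are cytosolic. Of the 5 members with the promoter letters above, 3 rose, 1 fell and 1 was not called at 0.05. With the replicate block, the fall and the rise of Iars among these were not called either. The 5 members are too few to set against other genes, and whether the letters bear on these calls was not tested.

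The enzyme for the amino acid that was reduced, Iars, lay between 29.0 and 53.9 CPM (median 38.6) on low isoleucine, against 23.2 to 44.1 CPM (median 33.2) on control. The ranges overlapped in every class, and 16 of 24 low libraries lay above the control mean. Its log2 fold change was 0.16 ± 0.06 (adjusted p = 0.03 by edgeR), and by class it was 0.19 for DBA females, 0.11 for DBA males, 0.34 for B6 females and 0.01 for B6 males. The value moved with a length index of the libraries. For each library it is the median log2 deviation of short genes from their means over all libraries, minus that of long genes. Short genes had at most 2764.5 exon bases and long genes at least 6759.5, the outer quartiles of 13355 protein-coding genes. In B6 females the index lay between -0.205 and 0.0309 (median -0.0617) on low isoleucine, against -0.126 to 0.283 (median 0.206) on control. With the index as a covariate, chosen after the data were seen, Iars stood at 0.12 with an adjusted p of 0.11. Aars (-0.10, adjusted p = 0.15) and Aars2 (-0.12, adjusted p = 0.2) also missed the threshold with it, and the other 9 called members kept their calls.

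Lars, the cytosolic leucine enzyme, lay between 24.1 and 39.8 CPM (median 27.5) on low isoleucine, against 15.4 to 35 CPM (median 25.4) on control. Lars rose by 0.21 ± 0.06 (adjusted p = 0.0064 by edgeR), and 0.50 of log2 in B6 females was its largest value in a class. It was called in no other class. Group means there, on low isoleucine and control, were 29.3 and 26.3 CPM in DBA females and 31.5 and 29.1 CPM in DBA males. In B6 males they were 27.2 and 26.2 CPM. In B6 females the low libraries held 24.1 to 33.4 CPM, and 5 of the control libraries lay at 20.1 CPM or less while control library 4 held 32 CPM. Without that library the value was 0.68 (adjusted p = 2.2e-05). Vars, the cytosolic valine enzyme, lay between 15.6 and 26.6 CPM on low isoleucine, against 14.8 to 23.1 CPM on control. Its log2 fold change of 0.11 ± 0.05 had an adjusted p of 0.1.

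Of the mitochondrial branched-chain enzymes Vars2 alone passed the test, and differences between these enzymes were not tested. Vars2 lay between 11.5 and 20.1 CPM (median 15.6) on low isoleucine, against 11.4 to 26.8 CPM (median 19.3) on control. The log2 fold change of Vars2 was -0.27 ± 0.06 (adjusted p = 6.2e-04 by edgeR) and was lower in 22 of 24 low libraries. Iars2 lay between 51.6 and 73.6 CPM on low isoleucine, against 48.6 to 71.7 CPM on control, and its log2 fold change was -0.04 ± 0.04, at an adjusted p of 0.44. Lars2 lay between 43.2 and 688 CPM on low isoleucine, against 53.1 to 789 CPM on control, and its 0.26 ± 0.23 did not pass the test (adjusted p = 0.39). Of the 6 branched-chain members, 2 thus rose and 1 fell, with a median log2 fold change of 0.13.

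Among the other mitochondrial members, Fars2 (phenylalanine) lay between 17.2 and 25.9 CPM (median 20.7) on low isoleucine, against 18.8 to 27.2 CPM (median 23.4) on control. It fell by 0.17 ± 0.04 (adjusted p = 8.9e-04 by edgeR), and the B6 female groups did not overlap (17.5 to 21.1 CPM, against 21.4 to 25.9 CPM). Nars2 (asparagine) fell by 0.18 ± 0.05 (adjusted p = 0.0042), with 7.98 to 19.3 CPM on low isoleucine, against 7.85 to 24.4 CPM on control. Tars2 (threonine) fell by 0.14 ± 0.04 (adjusted p = 0.0074), with 16.0 to 27.5 CPM, against 16.6 to 25.8 CPM. Each was lower in 20 or 21 of 24 low libraries, and Aars2 (alanine), which fell by 0.21 ± 0.08 (adjusted p = 0.037), in 21. Fars2 contains other annotated genes on both strands, and the sources used here do not say that counting used the strand. Reads of overlapping genes may thus not be told apart there. The same limit holds for other members, among them Aars, Vars2 and Farsb. In all, 8 members overlap an annotated gene on the same strand and 16 one on the opposite strand.

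**Figure D3:**
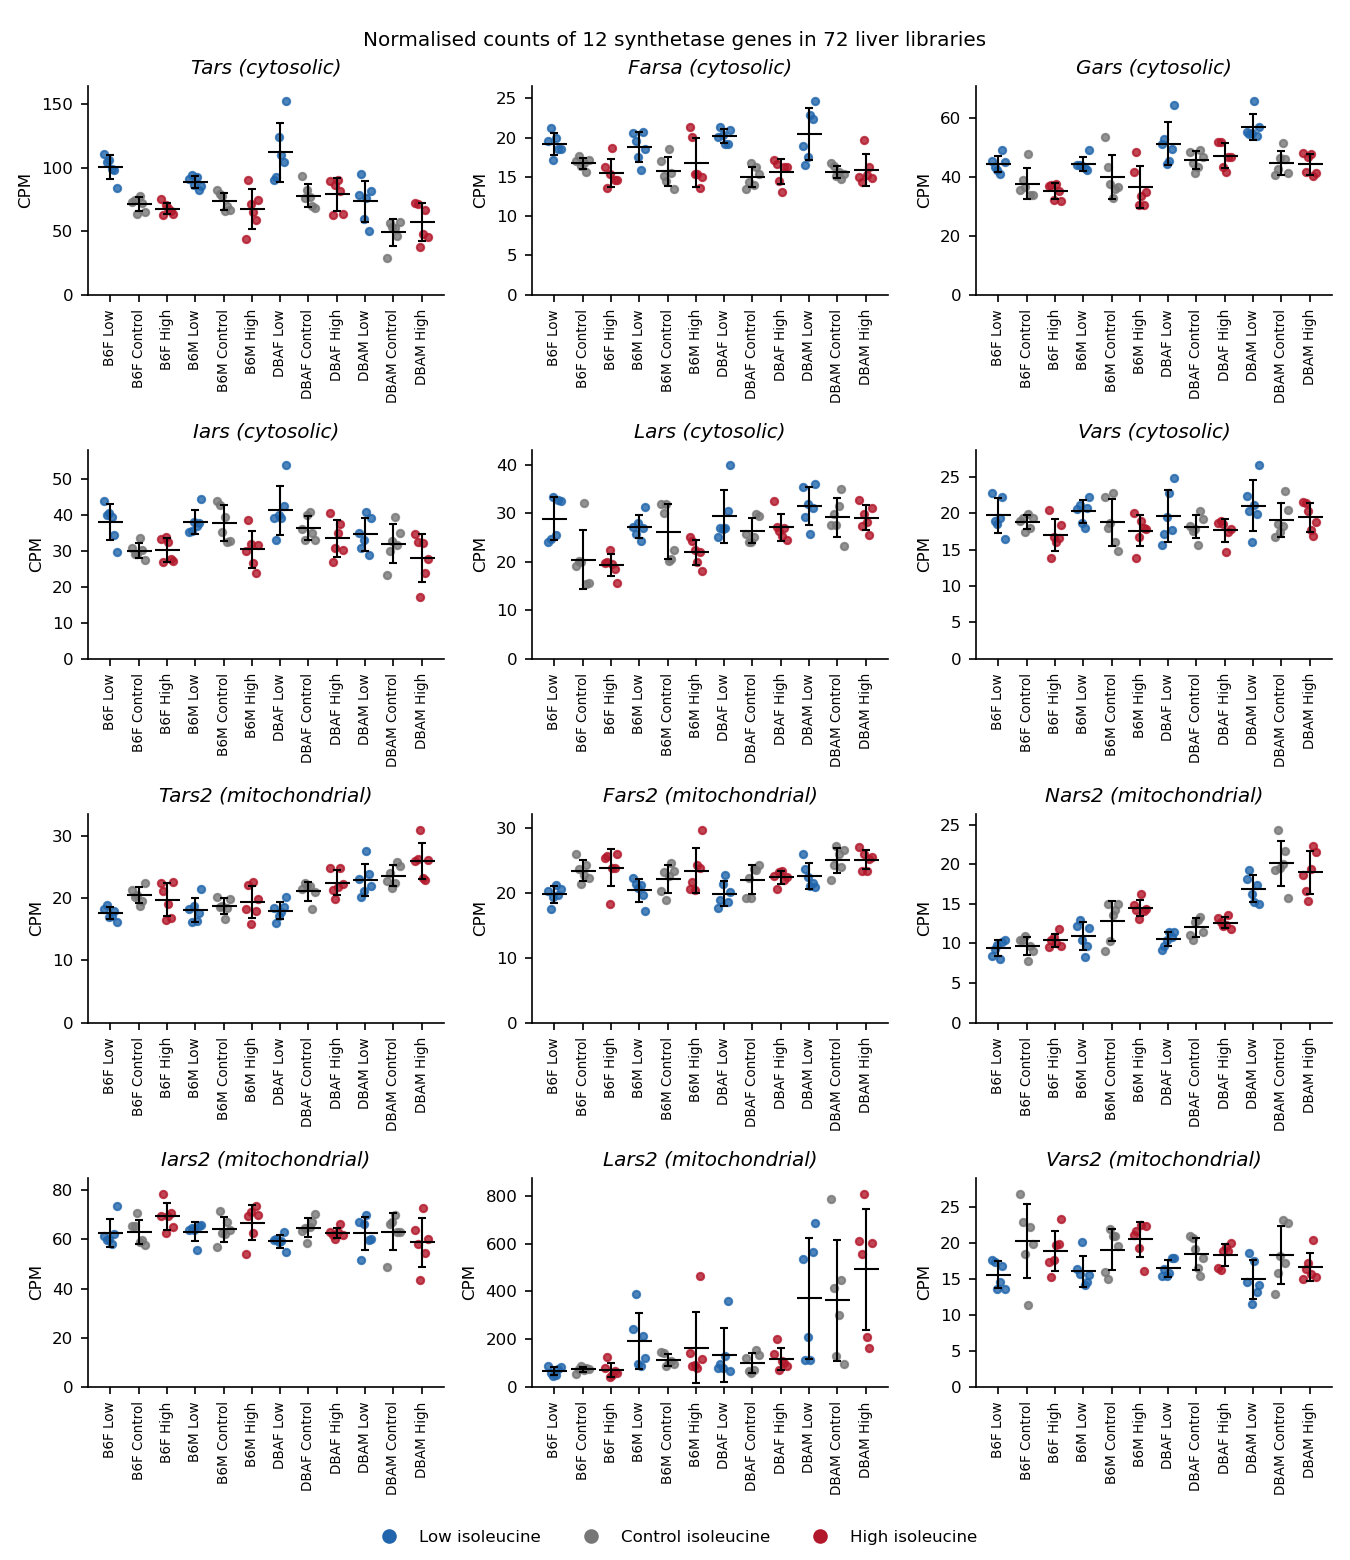
CPM of 12 members in each library (points) with the mean and SD of each group of 6 (bars), for low, control and high isoleucine in each strain-sex class. Blue points (low) of Tars, Farsa and Gars mostly stand above the grey (control) and red (high) ones of their class, those of Vars2, Fars2, Nars2 and Tars2 mostly below, and Lars2 spreads widest, up to 810 CPM in DBA males.

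Setting the cytosolic enzyme over the mitochondrial enzyme for the same amino acid within a library removes what both share, such as depth. The log2 ratio of Tars to Tars2 was 0.61 higher on low isoleucine than on control, and above the control mean of the class in 24 of 24 low libraries. The ratio of Vars to Vars2 was 0.36 higher (22 of 24), that of Hars to Hars2 0.24 higher (18 of 24), that of Nars to Nars2 0.23 higher (21 of 24) and that of Iars to Iars2 0.20 higher (17 of 24). Not every amino acid moved this way. The ratio of Cars to Cars2 (cysteine) was 0.31 lower on low isoleucine, with 5 of 24 libraries above the control mean, and that of Wars to Wars2 (tryptophan) 0.10 lower, with 7 of 24. The ratios of the other 5 amino acids (leucine, alanine, arginine, serine and tyrosine) differed by -0.04 to 0.08. No test was made of these ratios, since the pairs were set side by side with results known.

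**Figure D4:**
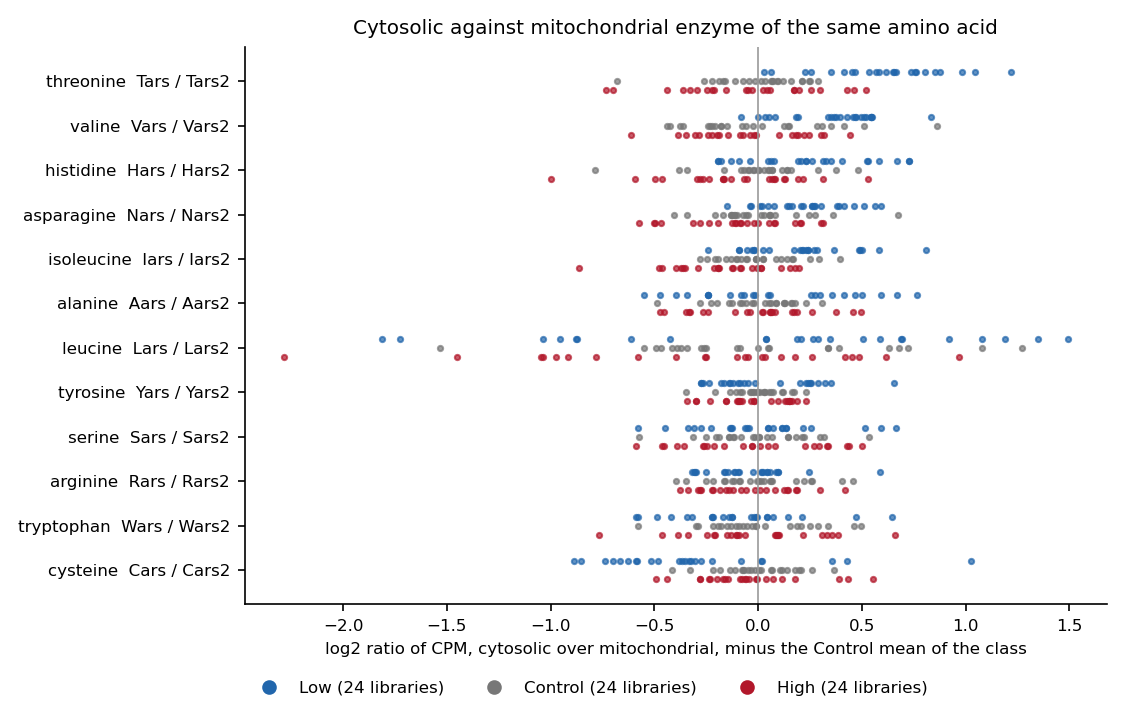
Log2 ratio of CPM of the cytosolic over the mitochondrial enzyme in each library, minus the mean of the control libraries of its class, for 12 amino acids. Blue points (low) stand to the right of 0 in all 24 libraries for threonine and in 22 for valine, and to the left in most for cysteine.

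Summed over members and per kb, the cytosolic enzymes had 255 to 377 CPM per kb (median 290) on low isoleucine, against 248 to 313 CPM per kb (median 278) on control. The mitochondrial enzymes without Lars2 had 65.4 to 83.2 CPM per kb (median 73.3) on low isoleucine, against 69.2 to 86.9 CPM per kb (median 77.6) on control. The ratio of these sums was above the control mean of the class in 20 of 24 low libraries, namely in 6 of 6 for DBA females, 5 of 6 for DBA males, 6 of 6 for B6 females and 3 of 6 for B6 males. It was above it in 9 of 24 high libraries.

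Within the classes fewer members passed the test. In B6 females 8 of 35 were called (20.8% of all genes were): Lars (0.50), Tars (0.50), Mars2 (0.45), Eprs (0.34) and Iars (0.34) were higher, and Cars (-0.41), Vars2 (-0.37) and Fars2 (-0.24) were lower. With the length index as a covariate, Iars, Mars2, Cars, Vars2 and Fars2 missed the threshold there, with adjusted p between 0.069 and 0.2, and with the replicate block the same 5 missed it, with adjusted p between 0.056 and 0.14. Without B6 female control library 4 all 8 were called, with Lars at 0.68, Mars2 at 0.63 and Vars2 at -0.50, and Gars and Tars2 were called as well. In DBA females 2 were called (11.8% of all genes), Tars (0.53 ± 0.14, adjusted p = 0.0082) and Farsa (0.43 ± 0.09, adjusted p = 0.0012). In DBA males 4 were called (17.7% of all genes), with Tars (0.59), Farsa (0.39) and Gars (0.35) higher and Aars (-0.33) lower. With the replicate block Tars in DBA females (0.51, adjusted p = 0.057) and Aars in DBA males (-0.33, adjusted p = 0.074) missed the threshold. In B6 males 0 of 35 were called by edgeR (5.01% of all genes were), while 5 had an unadjusted p under 0.05 (18.9% of all genes did) and DESeq2 called Aars alone. The B6 male groups did not overlap for Cars (9.80 to 12.6 CPM on low isoleucine, against 13.9 to 17.6 CPM on control), with a log2 fold change of -0.39 and an adjusted p of 0.12. Without B6 male control library 1, edgeR called Cars2 higher and Aars lower in B6 males.

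Whether the effect of low isoleucine differed between strains or sexes was tested as an interaction. Between DBA and B6, 0 of 35 members were called by edgeR and 0 by DESeq2, where edgeR called 1.39% of all genes. At an unadjusted p under 0.05 there were 3 members, and 14.6% of all genes. The largest such difference was that of Cars, at 0.45 ± 0.15 (adjusted p = 0.10), with log2 fold changes of 0.22 and -0.11 for females and males of DBA, and -0.41 and -0.39 for those of B6. Between males and females 2 members were called, where 6.68% of all genes were. Aars differed by -0.40 ± 0.11 (adjusted p = 0.022), with -0.35 and -0.33 in B6 and DBA males, and 0.04 and 0.07 in B6 and DBA females. Eprs, the bifunctional glutamate and proline enzyme, differed by -0.29 ± 0.09 (adjusted p = 0.04), with -0.02 and -0.06 in B6 and DBA males, and 0.34 and 0.15 in B6 and DBA females. The call of Eprs was lost without B6 male control library 1 (-0.27, adjusted p = 0.055) and without B6 male high library 1 (-0.27, adjusted p = 0.052). For Aars, B6 female control library 4 held 125 CPM beside a group median of 230 CPM, and without that library the difference was -0.34 (adjusted p = 0.025). Neither difference was called with the replicate block (adjusted p = 0.076 for Aars and 0.13 for Eprs) or with no filter on low counts (0.068 and 0.15).

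High isoleucine left the members close to control. As the mean of the 4 classes 0 of 35 members and 0.0% of all genes were called by edgeR. DESeq2 called 0 members and 5 genes, and 1 member and 685 genes had an unadjusted p under 0.05. That member was Iars, with a log2 fold change of -0.15 ± 0.06 (unadjusted p = 0.014, adjusted p = 1), and it was lower than the control mean in 15 of 24 high libraries. Iars lay between 17.1 and 40.5 CPM (median 31.3) on high isoleucine, against 23.2 to 44.1 CPM (median 33.2) on control. Tars (0.01), Farsa (0.01), Vars2 (-0.04) and Gars (-0.05) had small log2 fold changes. In B6 males 1 member was called (4.51% of all genes were), Eprs at -0.30 ± 0.09 (adjusted p = 0.041), with 59.7 to 103 CPM on high isoleucine, against 85.5 to 111 CPM on control. Without B6 male control library 1 its adjusted p was 0.071, with the replicate block it was 0.1, and with the length index as a covariate it was 0.41 at a log2 fold change of -0.18. The index lay between -0.00187 and 0.414 (median 0.133) in these high libraries, against -0.246 to 0.0237 (median -0.0659) in the controls.

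High against low isoleucine uses the low libraries again, so it is not independent of the comparison of low with control. Of the 19 cytosolic members 9 were lower on high isoleucine (Tars, Iars, Farsa, Lars, Gars, Hars, Vars, Eprs and Kars) and 2 higher (Cars and Aars). Of the 16 mitochondrial members 6 were higher (Nars2, Vars2, Aars2, Fars2, Tars2 and Hars2), and 0 were lower by edgeR and by DESeq2, with 1 (Mars2) lower at an unadjusted p under 0.05. Among all genes 22.9% were higher and 20.7% lower. Iars had a log2 fold change of -0.32 ± 0.06 (high over low, adjusted p = 2.1e-05), beside 0.16 for low over control. Vars, not called on low isoleucine against control, had -0.17 ± 0.05 (adjusted p = 0.0062) here, and Tars -0.46 ± 0.07 (adjusted p = 2.1e-07). Vars2 had 0.23 ± 0.06 (adjusted p = 0.0023) and Fars2 0.20 ± 0.04 (adjusted p = 5.9e-05). With the replicate block Aars (adjusted p = 0.061) and Aars2 (0.058) missed the threshold here, as did Aars without B6 male high library 1 (0.13, adjusted p = 0.05). With the length index as a covariate, edgeR no longer called Cars (0.14, adjusted p = 0.11), Aars (0.09, 0.17) or Aars2 (0.12, 0.18). With no low-count filter Aars (0.071) and Kars (0.058) missed it.

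Other genes of the amino acid response give the setting of these values on low isoleucine. Among 27 ATF4 targets other than synthetases, 7 were higher and 2 lower. Asns, asparagine synthetase, rose by 1.29 ± 0.38 (adjusted p = 0.005), whereas Trib3 (-0.06) and Ddit3 (0.10), both known as ATF4 targets under stress, did not pass the test, and Shmt2, of mitochondrial serine metabolism, fell by 0.28 ± 0.06. Atf4 itself rose by 0.25 ± 0.07 (adjusted p = 0.0017). Of 11 genes of amino acid deficiency sensing, 4 were higher (36.4%) and 0 lower by edgeR. Of 13 partners of cytosolic synthetases and elongation, 6 were higher (46.2%) and 0 lower, led by the elongation factor subunit Eef1b2 (0.31 ± 0.05). Of 17 partners of mitochondrial translation, 6 were lower (35.3%) and 2 higher (11.8%). Gatb, a subunit of the enzyme that makes glutaminyl-tRNA in mitochondria, stood at -0.38 ± 0.06 and the ribosome recycling factor Gfm2 at -0.27 ± 0.05.

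Wars, the cytosolic tryptophan enzyme, is known for its induction by interferon gamma. Of 29 interferon response genes 27 fell on low isoleucine and 0 rose by edgeR, with Irf1, an interferon-induced transcription factor, at -0.60 ± 0.09. Wars had a log2 fold change of 0.04 ± 0.05 (adjusted p = 0.55), with 7.70 to 14 CPM on low isoleucine, against 8.06 to 15.6 CPM on control. Markers of other cells moved as well. As the mean of the 4 classes, 13 of 16 macrophage markers fell and 0 rose by edgeR. Of 10 endothelial markers 6 rose (60.0%) and 0 fell, and of 11 hepatocyte markers 4 rose (36.4%) and 0 fell. By class, 11 macrophage markers fell in B6 females (11.3% of all genes fell), 6 in B6 males (3.26%) and 0 in DBA females (6.67%). In DBA males 0 fell (10.2% of all genes), and 11 of the 16 had log2 fold changes above 0. Summed hepatocyte markers lay between 99300 and 131000 CPM in B6 females on low isoleucine, against 75800 to 116000 CPM on control. The part of these cell markers in the values of the members was not tested.

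On the control diet, 10 of 35 members were higher in DBA than in B6 (22.9% of all genes were) and 4 were lower (22.5% of all genes were). The higher ones were 6 of the 16 mitochondrial members (Lars2, Pars2, Nars2, Wars2, Hars2 and Tars2) and 4 of the 19 cytosolic members (Cars, Lars, Gars and Sars). The lower ones were the cytosolic Wars, Farsb, Hars and Dars. Reads were aligned to GRCm38, the assembly of C57BL/6J. The part of DBA alleles in the counting was not tested. By sex, DBA males had 8 members higher (20.9% of all genes) and 6 lower (19.6%) than B6 males, and DBA females had 5 higher (15.8%) and 2 lower (16.5%) than B6 females. Tars was among those lower in DBA males (-0.59 ± 0.14, adjusted p = 5.6e-04), with no overlap between the groups. Calls lost with the replicate block were those of Dars and Qars in males and of Nars2 and Farsb in females. Nars2 (0.25, adjusted p = 0.064) and Farsb (-0.28, adjusted p = 0.059) in females were also lost without B6 female control library 4.

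Pars2, the mitochondrial proline enzyme, held 3.14 to 5.25 CPM (median 4.84) in DBA males and 3.5 to 4.79 CPM (median 3.92) in DBA females, against 1.82 to 3.46 CPM (median 2.70) in B6 males and 2.38 to 2.97 CPM (median 2.64) in B6 females. The strains did not overlap in females, and in males they overlapped by a single DBA library. Its log2 fold change, DBA over B6, was 0.68 ± 0.12 (adjusted p = 1.4e-06 by edgeR). Wars2 (mitochondrial tryptophan) held 5.44 to 7.21 CPM in DBA females, against 3.47 to 5.02 CPM in B6 females, and 3.98 to 5.92 CPM in DBA males, against 3.51 to 5.26 CPM in B6 males. Its log2 fold change was 0.48 ± 0.09 (adjusted p = 8.6e-06), while the cytosolic Wars went the other way at -0.32 ± 0.06 (adjusted p = 2.7e-05). Wars held 8.06 to 9.26 CPM in DBA females, against 10.7 to 15.6 CPM in B6 females, with no overlap. In males it held 9.80 to 11.8 CPM in DBA, against 10.2 to 12.9 CPM in B6, and its log2 fold change by sex was -0.57 in females and -0.07 in males.

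Farsb fell by 0.32 ± 0.08 in DBA (adjusted p = 6.3e-04), with 16.4 to 18.6 CPM in DBA females, against 18.7 to 24.6 CPM in B6 females. All 12 DBA libraries lay below the B6 mean of their sex. Its partner subunit Farsa had -0.09 ± 0.07 (adjusted p = 0.31). Cars rose by 0.40 ± 0.10 (adjusted p = 0.0011), with 20.9 to 28.6 CPM in DBA males, against 13.9 to 17.6 CPM in B6 males, and did not overlap there. Hars fell by 0.29 ± 0.08 (adjusted p = 0.0014), and its value was -0.56 in males and -0.02 in females. Hars held 14.3 to 26.1 CPM in DBA males, against 29.8 to 35.3 CPM in B6 males, whereas Hars2, whose gene lies head to head with Hars and overlaps it by 198 bases, rose by 0.21 ± 0.06 (adjusted p = 0.0056).

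**Figure D5:**
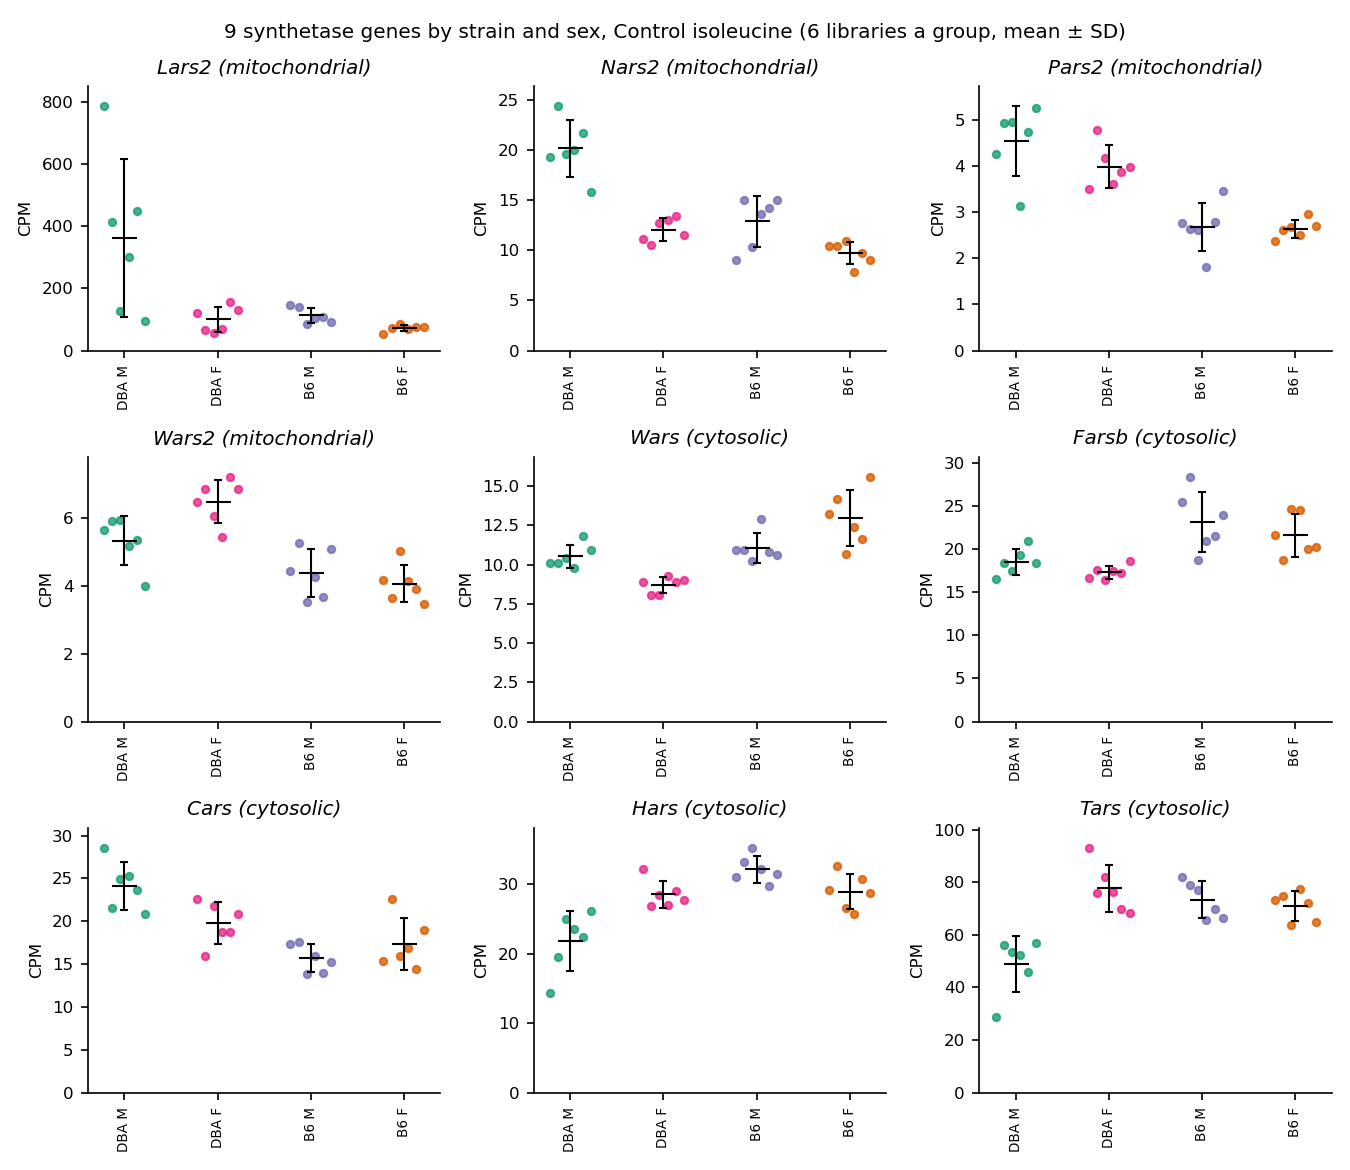
CPM of 9 members in control libraries of DBA males, DBA females, B6 males and B6 females (points, 6 libraries each) with mean and SD (bars). Lars2 and Nars2 are highest in DBA males, Pars2 and Wars2 are higher in both DBA groups, and Hars and Tars are lowest in DBA males.

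Between the sexes on control, 5 members were higher in males (13.3% of all genes were) and 1 was lower (12.9% of all genes were). Within DBA 3 members were higher in males (14.4% of all genes) and 3 lower (11.3%), namely Lars2, Nars2 and Wars against Tars, Hars and Kars. Within B6 5 were higher in males (8.93% of all genes), namely Nars2, Eprs, Lars, Iars and Dars, and 0 lower by edgeR (8.48%) or DESeq2, with 4 lower at an unadjusted p under 0.05. Without B6 male control library 1, 3 members were higher and 1 lower in B6 males, and without B6 female control library 4, 5 were higher and 1 lower. Iars in B6 was not called without B6 male high library 1 either (0.33, adjusted p = 0.052). With the replicate block Nars2 and Eprs alone were higher in B6 males, and Wars was not called in DBA. Nars2 had the lowest adjusted p (4.3e-09) with 0.58 ± 0.07, male over female. It held 15.8 to 24.4 CPM in DBA males, against 10.5 to 13.4 CPM in DBA females, and 9.05 to 15.0 CPM in B6 males, against 7.85 to 10.9 CPM in B6 females. DBA exceeded B6 in males (0.64, adjusted p = 6.4e-07) and in females (0.31, adjusted p = 0.018), and DBA males stood highest of the 4 control groups. Lars (0.25 ± 0.09), Dars (0.24 ± 0.07, the aspartate enzyme) and Eprs (0.22 ± 0.06) were also higher in males. Without B6 male control library 1, Lars stood at 0.21 with an adjusted p of 0.074, and with the replicate block at 0.25 with 0.072. Tars was lower in males, at -0.31 ± 0.10 (adjusted p = 0.015), with 28.6 to 56.9 CPM in DBA males, against 68.2 to 93.2 CPM in DBA females, and 65.5 to 82.1 CPM in B6 males, against 63.6 to 77.4 CPM in B6 females. Its log2 fold change was -0.67 in DBA and 0.05 in B6, a difference that was not tested.

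Lars2 stood apart from the other members. On control it held 95 to 789 CPM (median 358) in DBA males and 55.3 to 155 CPM (median 96.0) in DBA females, against 86.2 to 147 CPM (median 106) in B6 males and 53.1 to 86.1 CPM (median 73.9) in B6 females. The range within DBA males was wider than the differences between the groups. The fitted log2 fold changes were 1.07 ± 0.32 for DBA over B6 (adjusted p = 0.0051, 8 of 12 libraries above the B6 mean of their sex) and 1.25 ± 0.33 for males over females (adjusted p = 0.0028, 11 of 12). With the replicate block DBA over B6 stood at 0.87 and was not called (adjusted p = 0.05). By sex the value of DBA over B6 was 1.68 in males and 0.47 in females. The mitochondrial 16S ribosomal RNA gene mt-Rnr2 was set beside it after its values were seen. Over the 72 libraries log2 Lars2 and log2 mt-Rnr2 had a Pearson correlation of 0.60, with 0.67 and 0.69 for females and males of DBA and 0.52 and 0.29 for those of B6 (18 libraries each). These points share library and depth. The part of mt-Rnr2 reads in the Lars2 counts was not tested.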

How the data were processed

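Bulk RNA of 72 liver libraries was measured. Per the labels' protocols, reads were mapped to GRCm38.p5 and the authors deposited expected counts for each Ensembl gene. Which aligner and counter they used is not given in the sources used here. R 3.4.3, edgeR, limma and GRCm38 are named in the submitters' processing notes. Of the deposited nonzero expected counts 9.56% were not whole, and they were rounded; 1 incomplete gene line was left out. Fold-change tables of the authors were not used. The labels name a polyA-enriched and a total RNA preparation in different fields.

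Columns were matched to libraries by title. Genes were kept by edgeR's filterByExpr, scaled by TMM (factors 0.841 to 1.14) and tested with edgeR's quasi-likelihood test (edgeR 4.0.16, limma 3.58.1, R 4.3.3) in 1 fit with 12 group means; a class is a strain and sex. P-values were Benjamini-Hochberg adjusted over 14954 genes, with a threshold of 0.05. CPM values are per 1000000 counts of the TMM-scaled library. Positions came from GENCODE M21 on GRCm38. A library count on the side of a fold change is set against the mean of the control group of its class (for strain or sex, of the matching group). No libraries of a group agreed within sampling noise. Tested on simulated data of the low against control comparison (200 of 14954 genes changed), the fit recovered 35.4% of genes changed by 0.3 on the log2 scale and 100% of those changed by 1. Every simulated gene had 1 spread, a biological coefficient of variation of 0.21. In the data 5647 genes were called. These shares thus need not hold for the members, whose spreads differ.

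Alternatives were DESeq2 size factors, DESeq2 1.42.0, no low-count filter, a block by title number, library weights, groups fitted alone, and libraries left out. A length index and 3 of the left-out libraries were added after seeing the data. The members and gene lists were chosen with earlier results of these data known. Values by library were given for the 6 branched-chain enzymes and for up to 6 further members with the lowest adjusted p in low against control and in DBA against B6; ranges are also given for Hars, Aars and Eprs, picked after their values were seen. From each other list up to 3 genes with the lowest adjusted p could be named, and Atf4, Asns, Trib3, Ddit3 and Irf1 whatever their test. A further gene of that rule and a promoter sequence are not reported here.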

Additional observations from a re-analysis of the deposited data

Results flagged for a closer look

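For the 17 members given by library, each of the 12 groups was searched for a single library far from the other 5, with Dixon's 95% criterion. It was met in 23 of 204 cases, where chance gives about 1 in 20. Lars2 stood high, with 463 CPM in B6 male high library 5 (next 143) and 358 CPM in DBA female low library 5 (next 129), and so did Cars, with 42.0 CPM in DBA female low library 6 (next 23.6) and 27.5 CPM in B6 male high library 2 (next 17.6). Cars also stood low, at 9.80 CPM, in B6 male low library 3.

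Lars stood high at 32 CPM in B6 female control library 4 (next 20.1), at 32.4 CPM in DBA female high library 1 and at 39.8 CPM in DBA female low library 6. Iars stood high at 44.6 CPM in B6 male low library 6. Vars stood low at 14.7 CPM in DBA female high library 4. Iars2 stood high at 73.6 CPM in B6 female low library 6 and low at 55.7 CPM in B6 male low library 4 and at 48.6 CPM in DBA male control library 1. Gars stood high at 49.0 CPM in B6 male low library 6, at 65.5 CPM in DBA male low library 4 and at 47.8 CPM in B6 female control library 4. Farsa stood high at 19.7 CPM in DBA male high library 3.

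Fars2 stood low at 18.3 CPM in B6 female high library 3, and Tars2 at 18.2 CPM in DBA female control library 5. Pars2 stood high at 4.20 CPM in B6 female low library 1. Wars2 stood low at 2.34 CPM in B6 male high library 1 and high at 6.11 CPM in B6 male low library 4. Wars stood high at 12.9 CPM in B6 male control library 4. By the interaction test between males and females, 2 of 35 members were called for low isoleucine, where 6.68% of all genes were. They were Aars (-0.40, adjusted p = 0.022 by edgeR) and Eprs (-0.29, adjusted p = 0.04). Neither was called with the replicate block (adjusted p = 0.076 and 0.13) or with no filter on low counts (0.068 and 0.15).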

How the results depend on the processing

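Of 54 single results recomputed under 10 alternatives, 42 kept direction and call under each; in 27 of 540 values the call was lost, and 0 reversed. The labels do not say what the title numbers mean. Deviations of 36 same-number pairs of libraries had correlations of -0.365 to 0.243 (median -0.0274, 6 over 0.1), against a median of -0.248 for 144 other pairs of a group. Deviations were taken from the group mean, which draws correlations of unrelated libraries below 0. Same-number pairs were thus more alike than other pairs, and the fitted correlation within a number was 0.244. With a replicate block on that number 10 results lost the call, among them Iars, Hars, Aars and Aars2 on low isoleucine, Lars2 for DBA over B6 (0.87, adjusted p = 0.05), and Aars and Eprs between the sexes. The block called 0 cytosolic members lower for low against control, 1 higher for high against low, 3 members in B6 females, 1 in DBA females and 0 for the sex difference. Over all genes it called 899 higher and 953 lower in B6 females (1425 and 1690 in the main fit). There were 347 and 480 in DBA females (765 and 998), and 132 and 168 for the sex difference (453 and 546).

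With no low-count filter the counts were 0 cytosolic members lower (low), 1 cytosolic member higher (high against low), 4 members in B6 females and 0 for the sex difference. Of the 27631 genes then tested, 964 were higher and 1436 lower in B6 females, and 349 and 262 for the sex difference. Library weights gave 2 cytosolic lower and 3 mitochondrial higher (low), 3 members in B6 males, 4 in DBA females, 2 lower in males than females and 6 for the sex difference. Calls over all 14954 genes grew as well. In B6 males 775 were higher and 940 lower (261 and 488 in the main fit). In DBA females there were 1304 and 1507 (765 and 998), and for the sex difference 1084 and 1178 (453 and 546). The length index gave 0 cytosolic lower and 1 mitochondrial higher (low), 5 members in B6 females and 1 in B6 males. Over all genes it called 1594 higher and 1699 lower in B6 females, and 408 and 624 in B6 males. For high against low it gave 1 cytosolic member higher, which was neither Cars nor Aars. In B6 males DESeq2 called 1 and a fit of its 2 groups alone called 2.

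Leaving out single libraries gave 0 to 1 mitochondrial members higher (low), 1 to 2 cytosolic higher (high against low), 0 to 2 members in B6 males and 1 to 2 for the sex difference. In B6 males the count was 1 without B6 female control library 4 or DBA male high library 3 and 2 without B6 male control library 1. Aars in high against low was lost without B6 male high library 1 (0.13, adjusted p = 0.05). DBA over B6 gave 5 higher and 2 lower in females alone. Males over females gave 3 higher and 3 lower in DBA alone and 0 lower in B6 alone. At this depth and spread, members that were not called cannot be said to be unaltered.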
